A study of Mus musculus with 18 samples.

Results

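The measurement described here is the difference between the transcriptional responses of 2 mouse cell populations to 17-DMAG, an ansamycin inhibitor of the chaperone HSP90. It is the change from untreated to treated in the resistant population 4T1R1 minus the same change in the parental population 4T1, per gene, on the log2 scale. A positive value means that the treated to untreated ratio was higher in 4T1R1, and a negative value that it was lower. It rests on 12 of the 18 libraries of the series, 3 in each of 4 groups: 4T1 untreated, 4T1 DMAG-treated, 4T1R1 untreated and 4T1R1 DMAG-treated. 4T1 is an established mouse mammary carcinoma line. 4T1R1 is a population, not a clone, of the cells that survived repeated exposure of 4T1 to the drug, and it was grown in drug-free medium before the test exposure. 4T1R2, selected separately in the same way, gives the remaining 6 libraries, which enter the fit with the others and so share in the estimate of spread, and is otherwise a comparison. None of the populations carries a further engineered change in the labels. Treated cells received 1.5 µM 17-DMAG. The sample records give an exposure of 48 h and the series description gives 2 h, so the time after the drug was added is not settled by the sources used here, and the conditions given for the selection also differ between these sources.

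HSP90 folds and holds many kinases and transcription factors, and it keeps the heat shock factor HSF1 inactive. When the chaperone is blocked, HSF1 is released and switches on the genes of HSP70, HSP40, HSP90 itself and their partners, while client kinases such as those of the MAP kinase and NF-κB pathways lose activity. Stress kinases that act on the translation factor eIF2 raise the factor ATF4, whose targets supply amino acids and tRNA synthetases and make up the integrated stress response. These genes are among the standard readouts of an HSP90 inhibitor in a tumor cell.

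The libraries held 26676031 to 55094630 counts. Replicates 1 and 2 of 4T1 DMAG-treated were more alike than any other replicate pair (chi-square per gene 1.10, against 2.04 to 2.22 in the 17 others). They were averaged and counted as 1 sample, which leaves n = 2 in that group and n = 3 in the others. Epithelial markers were high in all groups, with 10 of 10 at a mean of 100 normalized counts or more in 4T1 and in 4T1R1 untreated and 9 of 10 in 4T1R1 DMAG-treated, and a sum of 78096 to 80228 in 4T1 libraries and 52412 to 54909 in 4T1R1 libraries. The 9 leukocyte markers summed to 145 to 238 normalized counts and the 6 endothelial markers to 4.32 to 23.4. Cd68 gave most of the leukocyte sum, with group means of 147 to 203. The 7 fibroblast markers summed to 690.3 to 770.6 in untreated and 399.5 to 421.2 in treated 4T1, and to 842 to 895 in untreated and 713 to 779 in treated 4T1R1. Nearly all of the fibroblast sum was Pdgfra, with means of 712 and 386 in untreated and treated 4T1, and 844 and 711 in 4T1R1. The 4T1R1 libraries carry names from a separate series of identifiers, so population and any set of libraries handled together cannot be told apart. The ribosomal precursor Rn45s, left after depletion, took 10.7% to 11.4% of the counts in untreated and 13.2% to 14.1% in treated 4T1, against 13.4% to 15.6% in untreated and 9.54% to 12.2% in treated 4T1R1. In bulk RNA, fewer cells of one kind and less RNA per cell cannot be told apart, and this holds for every value below.

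The 2 populations differed in their response at 2464 of the 13507 genes tested (18.2%), by edgeR's quasi-likelihood test with Benjamini-Hochberg adjustment and a threshold of 0.05, the rule meant by "called" throughout. The difference was higher in 4T1R1 for 1237 genes (9.16% of those tested) and lower for 1227 (9.08%). Most differences were small, with a median size of 0.31 (log2) among called genes. Of the called genes, 262 higher and 275 lower had a size of at least 0.5, and 53 higher and 85 lower a size of at least 1. In 4T1 alone, 2490 genes rose (18.4%) and 2423 fell (17.9%) after 17-DMAG, and in 4T1R1 1874 rose (13.9%) and 1938 fell (14.3%). The split into higher and lower depends on the scaling of the libraries. With TMM factors 50.2% of the called genes were higher, while with total counts alone the median difference of all genes shifted from -0.003 to 0.15 and 89.4% were higher (3536 higher and 419 lower). Without 4T1 DMAG-treated replicate 3, 798 genes were higher and 787 lower, the lowest counts with any library left out, and 910 and 945 without the averaged replicates 1 and 2. Without Rn45s, 1244 genes were higher and 1217 lower.

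The commonest form of a called difference was a weaker response in 4T1R1, a ranking that holds with TMM scaling but not with total counts alone, where 1540 genes were of this form and 1620 had opposite signs with 1 response called. Each called gene was placed by the sign and call of its response in the 2 populations, a description that uses the same libraries as the difference. A response of the same sign and smaller size in 4T1R1 was found at 1163 genes, of which 547 had risen and 616 had fallen in 4T1. In 652 of these the response was called in both populations, with a median size of 0.66 (log2) in 4T1 and 0.26 in 4T1R1. In the other 511 it was called in 4T1 alone, with median sizes of 0.37 and 0.057. Responses of opposite sign that were called in both populations were found at 180 genes, 106 of which rose in 4T1 and fell in 4T1R1. Another 597 genes had opposite signs with only the 4T1 response called, and 333 with only the 4T1R1 response called. A larger response in 4T1R1 was the rarest of these classes, with 93 genes, 16 of them called in both populations. No gene of this class differed by 2-fold or more, against 74 of the smaller class and 6 of the opposite class. The remaining 98 genes had no called response in either population.

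**Figure D1:**
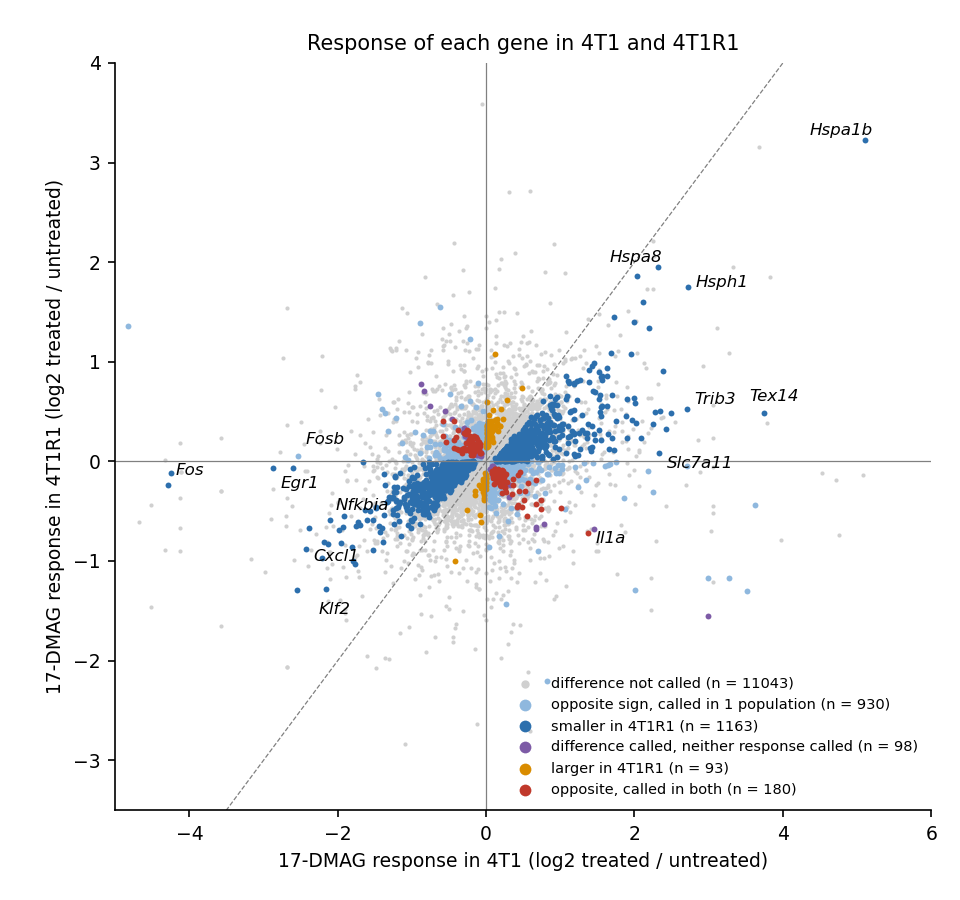
Fitted response of each of the 13507 genes tested in 4T1 (horizontal axis, log2 treated to untreated) and in 4T1R1 (vertical axis, same unit), coloured by class, with the line of equal response dashed. The class of smaller responses lies between the horizontal axis and the dashed line. Hspa1b lies there at 5.11 and 3.23, and Fos at -4.29 and -0.23. Il1a lies in the quadrant of opposite signs.

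Gene lists showed which kinds of genes made up these classes. Several lists had a median response above 0 in 4T1 and a lower one, still above 0, in 4T1R1, among them the integrated stress response genes, HSP90 with its co-chaperones, proteasome subunits and interferon-stimulated genes. Others had a median below 0 in 4T1 and nearer to 0 in 4T1R1, among them mRNA decay factors, MAP kinase feedback genes, NF-κB subunits with their feedback genes, and DNA replication genes. NRF2 targets, ribosomal protein genes and respiratory chain subunits were among those with medians above 0 in 4T1 and below 0 in 4T1R1. The counts of called members are read below against the 9.16% of all genes that were called higher and the 9.08% called lower.

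**Figure D2:**
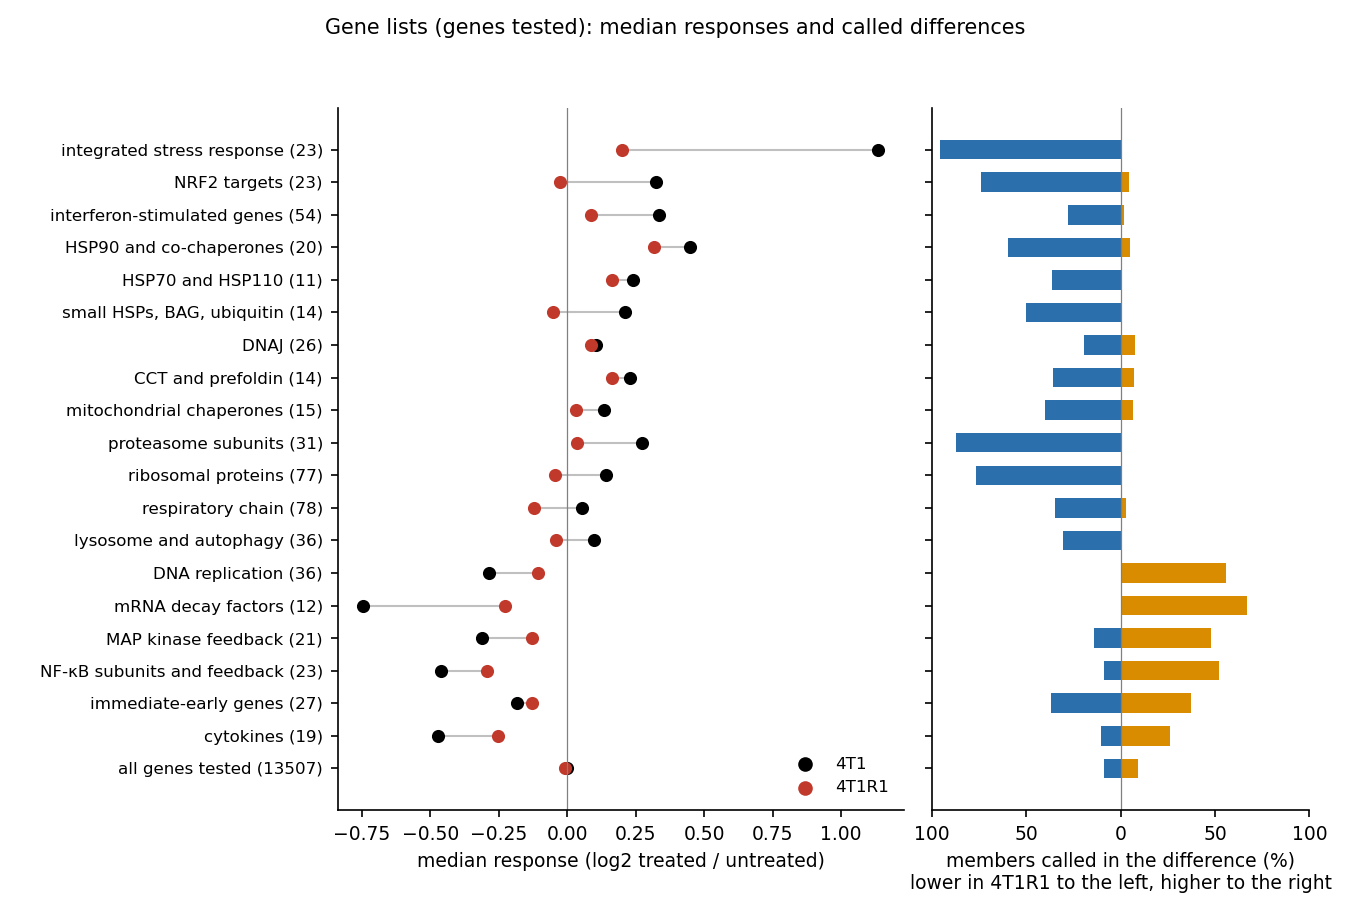
Left, median response of the tested members of each gene list in 4T1 (black) and in 4T1R1 (red), log2 treated to untreated. Right, percentage of members called in the difference, lower in 4T1R1 to the left and higher to the right. The integrated stress response list has the widest gap, from 1.13 to 0.20, while both medians of all genes tested lie within 0.01 of 0.

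A part of the chaperone genes rose in both populations, and the strongly induced ones described here rose less in 4T1R1. In 4T1 6 of 11 tested HSP70 and HSP110 genes, 12 of 20 HSP90 genes and co-chaperones and 12 of 26 DNAJ genes rose, and in 4T1R1 6, 12 and 10. Of the HSP70 and HSP110 genes 4 were lower in the difference and none higher, of the HSP90 genes and co-chaperones 12 were lower and 1 (Cdc37l1) higher, and of the DNAJ genes 5 were lower and 2 (Dnajc9 and Dnajc22) higher. The median difference was -0.082 for HSP70 and HSP110, -0.17 for HSP90 and co-chaperones and -0.042 for DNAJ genes. Under total counts alone the medians of HSP70 and HSP110 and of DNAJ genes changed sign, to 0.068 and 0.11, and that of the HSP90 list moved to -0.024, with 6 lower and 3 higher. Hspa1b encodes the inducible HSP70, the textbook target of HSF1. It had 470.2, 483 and 518 normalized counts in untreated 4T1 and 17081 and 16747 after 17-DMAG, and 439, 486 and 469.9 in untreated 4T1R1 and 4235, 4419 and 4391 after the drug. The untreated groups overlapped, while every treated 4T1 value was above every treated 4T1R1 value. The response was a 34.5-fold rise in 4T1 and a 9.35-fold rise in 4T1R1, and the difference was -1.88 ± 0.074 (log2 ± SE, adjusted p = 1.44e-22 by edgeR's quasi-likelihood test).

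Hspa1b lies at chr17:34956436-34959238 (GRCm38, GENCODE vM21), next to its near-identical copy Hspa1a. The split of reads between the copies is uncertain. Hspa1a was listed with 4.14, 4.27 and 15.6 normalized counts in untreated and 30.6 and 30.2 in treated 4T1, and 8.77, 13.6 and 10.2 in untreated and 8.63, 15.9 and 13.3 in treated 4T1R1, and its difference of -1.68 ± 0.74 did not pass the threshold (adjusted p = 0.116 by edgeR). The HSF1 recognition unit was searched in the 250 bases before each start as a pair of facing units, GAANNTTC or TTCNNGAA on either strand. Among 9 HSP70 and HSP110 genes with a RefSeq promoter, 3 held it (33.3%; Hspa1a, Hspa1b and Hsph1). Of all 32851 promoters, counted singly, 12.8% held it. A gene was counted if any of its listed starts had a match, so the unit of the 2 shares differs, here and for the motifs below. The share of genes was 12.5% for HSP90 and its co-chaperones (2 of 16) and 27.3% for DNAJ genes (6 of 22). For integrated stress response genes it was 15% (3 of 20). The Hspa1b promoter (chr17:34959239-34959488, minus strand, RefSeq, GRCm38.p6) is shown, from the gene with the largest chaperone difference. Of the few chaperone promoters considered for display, it alone held the match and lay almost wholly outside the annotated gene. It is given 5′ to 3′ and ends at the base before the start, with the match in capitals. 
Hspa1b: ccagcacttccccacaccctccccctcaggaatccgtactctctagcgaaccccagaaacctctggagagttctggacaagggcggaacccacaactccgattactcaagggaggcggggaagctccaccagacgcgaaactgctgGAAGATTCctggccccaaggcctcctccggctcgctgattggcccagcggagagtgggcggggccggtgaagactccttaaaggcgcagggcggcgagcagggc

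The other chaperones of the cytosol followed with smaller differences. Hsph1, an HSP110 that recharges HSP70 with nucleotide, had 11238, 10383 and 10831 normalized counts in untreated and 69747 and 72549 in treated 4T1, and 9058, 8677 and 9009 in untreated and 29353, 30338 and 30407 in treated 4T1R1, a difference of -0.97 ± 0.047. Hspa8, the constitutive HSP70, differed by -0.37 ± 0.035 between a response of 2.32 in 4T1 and 1.95 in 4T1R1. In both genes the untreated 4T1R1 libraries were below the untreated 4T1 libraries, and the treated 4T1R1 libraries below the treated 4T1 libraries. Dnajb1, the HSP40 that delivers clients to HSP70, responded with 2.19 and 1.34, Dnaja4 with 1.56 and 0.86, Dnajb4 with 1.55 and 0.85, and Hspa4l with 1.23 and 0.81, in 4T1 and 4T1R1 respectively. These 4 differences passed the threshold. Dnaja1, another HSP40, responded almost alike, with 2.03 and 1.86. Its difference of -0.16 ± 0.055 (adjusted p = 0.0314 by edgeR) lost its call under total counts alone and when any 1 of 6 libraries, or the averaged pair, was left out.

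HSP90 itself also rose less. The stress-inducible isoform Hsp90aa1 had 55202, 52184 and 54397 normalized counts in untreated and 211524 and 219767 in treated 4T1, against 50561, 47627 and 49436 and 128869, 130025 and 131759 in 4T1R1. The difference was -0.60 ± 0.037 (adjusted p = 3.66e-16 by edgeR), and the treated groups did not overlap. The constitutive isoform Hsp90ab1 differed by -0.31 ± 0.029, the ATPase activator Ahsa1 by -0.48 ± 0.045, and Stip1, which joins HSP70 to HSP90, by -0.45 ± 0.041. Of 14 small HSP, BAG and ubiquitin genes 7 were lower and none higher, with a median of -0.19, or 4 lower and 2 higher with a median of -0.036 under total counts alone. Among them, Bag3, a nucleotide exchange factor that directs clients to autophagy, rose by 1.56 in 4T1 and 0.55 in 4T1R1, and the small HSP Hspb8, its partner, by 1.63 and 0.94. The autophagy receptor Sqstm1 rose by 0.85 in 4T1, with -0.059 in 4T1R1, where its untreated level was already above the treated level of 4T1. Of 15 mitochondrial chaperones and proteases 6 were lower, including the chaperonin Hspd1 (-0.33 ± 0.039) and its partner Hspe1 (-0.45 ± 0.05), and 1 (Grpel2) was higher. Of 14 subunits of the CCT chaperonin and prefoldin 5 were lower and 1 (Vbp1) higher. The medians of these lists, -0.10 and -0.078, changed sign under total counts alone, to 0.049 and 0.072.

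The integrated stress response genes had the highest share of called members among the lists, 95.7%. Of 23 tested, 22 were lower in the difference and none higher, with a median of -0.90, against -0.003 over all genes. In 4T1 21 rose, with a median response of 1.13, and in 4T1R1 15 rose, with a median of 0.20. Their untreated levels were a median of 0.57 higher (log2) in 4T1R1 than in 4T1. For their treated levels the median of 4T1R1 against 4T1 was -0.45. Under total counts alone 21 were lower in the difference, with a median of -0.75. The cystine transporter Slc7a11 had the largest difference of the members named here. It had 587, 541 and 476 normalized counts in untreated and 2663 and 2716 in treated 4T1, and 3678, 3341 and 3683 in untreated and 3938, 3752 and 3635 in treated 4T1R1. Every untreated 4T1R1 library was above every treated 4T1 library, and the untreated and treated 4T1R1 libraries overlapped. The 5.04-fold rise of 4T1 was met by a 1.06-fold change in 4T1R1 that was not called, a difference of -2.25 ± 0.074 (adjusted p = 8.72e-25 by edgeR).

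Chac1, which degrades glutathione, had 205, 197 and 177 normalized counts in untreated and 1018 and 1062 in treated 4T1, and 814, 740.4 and 752 in untreated and 914, 990.3 and 996 in treated 4T1R1. Here the treated libraries of both populations lay close together, all above every untreated library, and the untreated 4T1R1 libraries lay well above those of 4T1. The difference in response was -2.10 ± 0.11. The pseudokinase Trib3, a feedback inhibitor of this pathway, had 204, 243 and 235 and 1479.8 and 1501 in 4T1, and 799, 784 and 891 and 1107, 1191 and 1276 in 4T1R1, a difference of -2.18 ± 0.11. Its treated 4T1R1 libraries remained below those of treated 4T1. The transcription factor Atf5 differed by -1.87 ± 0.079, the asparagine synthetase Asns by -1.55 ± 0.056, and the alanyl-tRNA synthetase Aars by -1.08 ± 0.042. Unlike Slc7a11, Aars averaged less in untreated 4T1R1 (10124) than in treated 4T1 (20089). Ddit3, the factor CHOP, was called in 4T1 alone, with 0.93 against 0.20. The alanine transaminase Gpt2, which is not in the list, differed by -1.83 ± 0.089.

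The element bound by ATF4 together with C/EBP proteins was searched as TGATGNAA, or TTNCATCA on the other strand. Of the 23 genes 20 had a promoter in the RefSeq table. Of these genes 6 held it in the 250 bases before any listed start (30%; Aars, Asns, Chac1, Gars, Nupr1 and Slc7a11). Of all 32851 promoters, counted singly, 3.45% held it. The promoters of Chac1 (chr2:119350992-119351241, plus strand) and Slc7a11 (chr3:50443614-50443863, minus strand; RefSeq, GRCm38.p6) are shown because both genes had large differences and no called or only a small response in 4T1R1. Only promoters that held the element and lay almost wholly outside the annotated gene could be shown. Aars, also considered, held the element but did not meet the second condition. Capitals mark the element, which occurs once before Chac1 and in each orientation before Slc7a11. 
Chac1: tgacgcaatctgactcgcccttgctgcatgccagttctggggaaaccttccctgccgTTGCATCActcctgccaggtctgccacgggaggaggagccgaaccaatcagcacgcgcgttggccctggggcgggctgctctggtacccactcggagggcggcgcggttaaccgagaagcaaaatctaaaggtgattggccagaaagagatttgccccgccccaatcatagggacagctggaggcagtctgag
Slc7a11: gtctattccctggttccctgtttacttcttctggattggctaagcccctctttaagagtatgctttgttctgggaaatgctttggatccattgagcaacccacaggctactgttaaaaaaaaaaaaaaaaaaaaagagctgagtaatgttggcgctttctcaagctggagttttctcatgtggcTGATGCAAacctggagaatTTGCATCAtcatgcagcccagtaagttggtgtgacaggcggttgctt

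**Figure D3:**
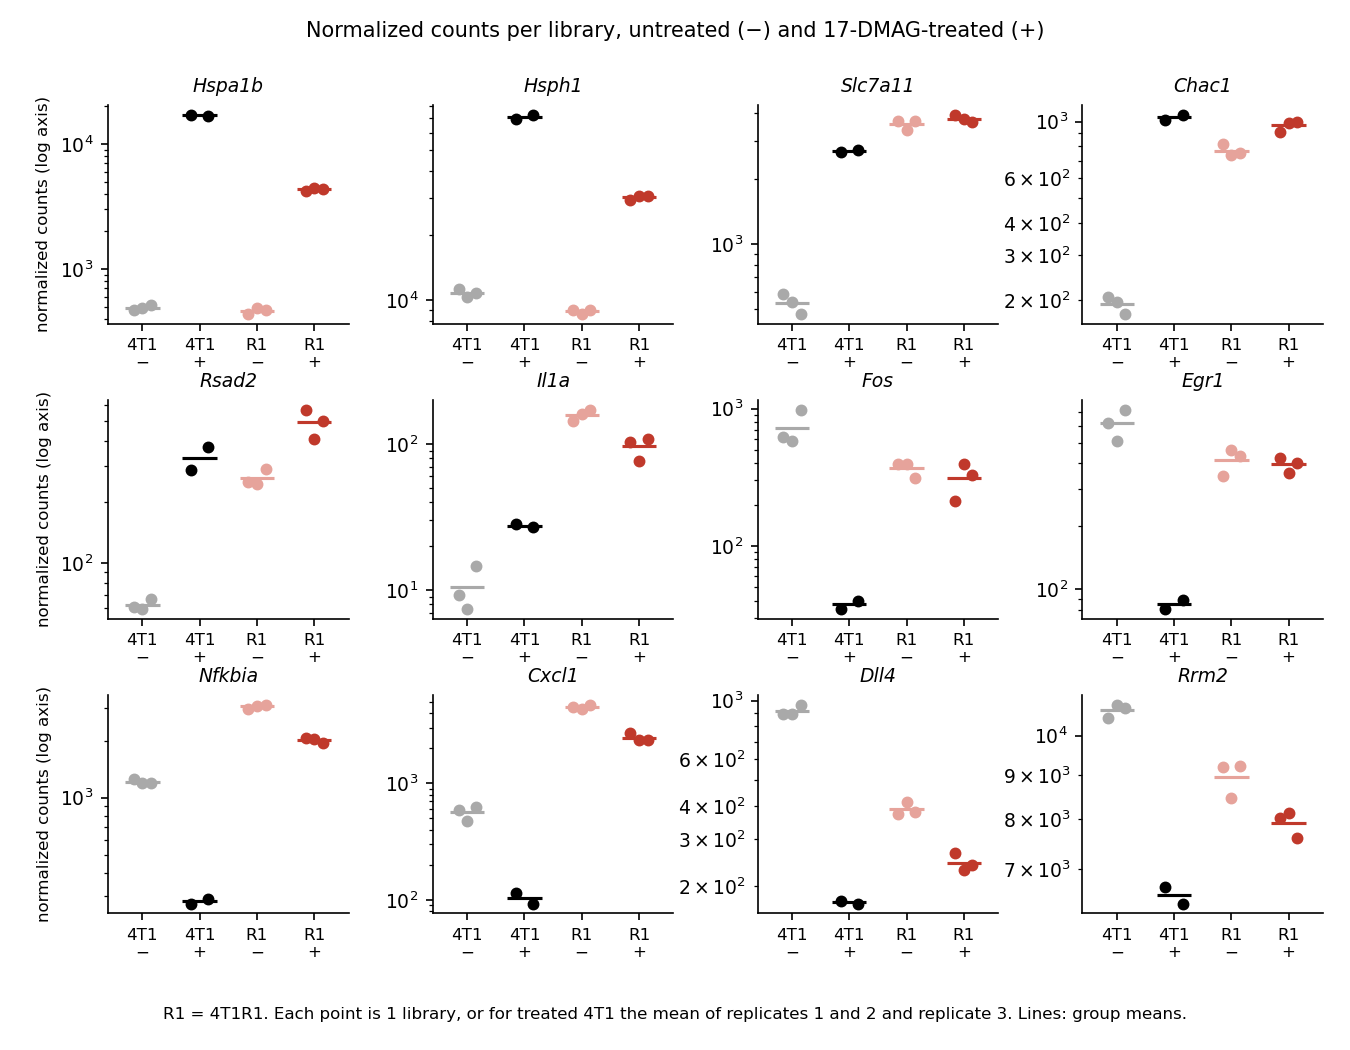
Normalized counts per library on a log axis for 12 genes, in untreated and treated 4T1 and untreated and treated 4T1R1, with lines at the group means and the averaged pair of treated 4T1 libraries drawn as 1 point. Slc7a11 of untreated 4T1R1 (3678, 3341 and 3683) sits above treated 4T1 (2663 and 2716), Fos falls to 35 and 40 in treated 4T1 alone, and Il1a moves in opposite directions.

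NRF2 targets, which protect against oxidants and electrophiles, also responded less. Of 23 tested 17 were lower in the difference and 1, Nfe2l2 encoding NRF2 itself, was higher. The median response was 0.32 in 4T1 and -0.026 in 4T1R1, and the median difference was -0.34. Under total counts alone it was -0.19, with 14 lower and 2 higher. The heme oxygenase Hmox1 had 364, 401 and 399.8 normalized counts in untreated and 913 and 962 in treated 4T1, and 549.5, 613 and 606 in untreated and 641, 689 and 599 in treated 4T1R1. The groups of 4T1 were far apart while those of 4T1R1 overlapped, and the difference was -1.14 ± 0.11. The heme transporter Slc48a1 differed by -0.76 ± 0.071, and Gclm, the modifier subunit of the first enzyme of glutathione synthesis, by -0.67 ± 0.075. Pgd, of the pentose phosphate pathway, rose by 0.38 in 4T1 and had a response of -0.058 in 4T1R1 that was not called.

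Proteasome subunits rose together in 4T1 and hardly in 4T1R1. Of 31 tested, 29 rose in 4T1 and 7 in 4T1R1, 27 were lower in the difference and none higher, with a median difference of -0.22. Under total counts alone the median was -0.067 and 7 were lower. The core subunit Psmb3 responded with 0.32 in 4T1 and -0.066 in 4T1R1, and the lid subunit Psmd11 with 0.44 and 0.13. Both differences passed the threshold. Autophagy genes were less uniform. Of 36 lysosome and autophagy genes 11 were lower and none higher, with 6 lower without 4T1 DMAG-treated replicate 3 and 7 without 4T1R1 DMAG-treated replicate 3, and their median of -0.11 became 0.043 under total counts alone. Gabarapl1, which helps autophagosomes mature, had 505, 525 and 534 normalized counts in untreated and 1468 and 1561 in treated 4T1 against 848, 751 and 845 and 1165, 1127 and 1159 in 4T1R1, a difference of -1.04 ± 0.092.

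Of 54 tested interferon-stimulated genes, 26 rose in 4T1 and 11 in 4T1R1. The difference was lower for 15 and higher for 1, the RNA sensor Ddx58, and was not called for the others. The median response was 0.34 in 4T1 and 0.086 in 4T1R1, from untreated levels a median of 1.55 higher (log2) in 4T1R1. Under total counts alone the median difference was -0.13, with 8 lower and 4 higher. The antiviral enzyme Rsad2 had 61.1, 59.8 and 66.3 normalized counts in untreated and 287 and 370.5 in treated 4T1, and 249, 245 and 292 in untreated and 566, 405 and 501 in treated 4T1R1. It rose in both populations, with treated above untreated in each, and differed by -1.47 ± 0.19. Ifit1, which binds foreign RNA caps, differed by -1.42 ± 0.17, and Oasl1, an inhibitor of Irf7 translation, by -0.97 ± 0.13. Ddx58 went the other way, with a fall in 4T1 (-0.68), while its response of -0.089 in 4T1R1 was not called. The GTPase gene Gbp2b had 29, 34.2 and 21.5 in untreated and 46.7 and 47.5 in treated 4T1, and 351, 349 and 336 and 247, 216 and 281 in 4T1R1. It rose from a low level in 4T1 and fell from a high one in 4T1R1, a difference of -1.22 ± 0.27.

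Ribosomal protein genes mostly rose in 4T1 by small amounts, while most had no called response in 4T1R1. Of 77 tested, 60 rose and none fell in 4T1, while 1 rose and 25 fell in 4T1R1. The difference was lower for 59 and higher for none, with medians of 0.14 in 4T1, -0.046 in 4T1R1 and -0.19 for the difference, and 18 were called with opposite signs in both. Total counts alone moved the median response of all genes by about the size of these values, to -0.11 in 4T1 and 0.025 in 4T1R1, and left 10 lower and 1 higher with a median difference of -0.036. Rpl31 of the large subunit had 11682, 12181 and 11927 normalized counts in untreated and 13539 and 13279 in treated 4T1, and 10516, 10675 and 9706 in untreated and 9205, 9393 and 9454 in treated 4T1R1. Its 4T1 groups and its 4T1R1 groups were each apart, in opposite directions. Rpl12 rose by 0.22 in 4T1 with -0.034 in 4T1R1.

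Nuclear-encoded subunits of the respiratory chain and ATP synthase showed a like pattern, with 27 of 78 lower and 2 higher and medians of 0.055 in 4T1 and -0.12 in 4T1R1. In 4T1R1 33 fell and 1 rose. The count of lower members was 16 without 4T1 DMAG-treated replicate 3 and 16 without replicates 1 and 2, and under total counts alone 4 were lower and 6 higher. Uqcrq of complex III had 1492, 1646 and 1539.9 in untreated and 2004 and 2010.0 in treated 4T1, and 1759.7, 1722 and 1645 and 1405, 1491 and 1449.7 in 4T1R1, a difference of -0.60 ± 0.073. Cox8a of complex IV responded with 0.18 in 4T1 and -0.20 in 4T1R1.

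The second large group consisted of genes that fell in 4T1 and fell less, or not at all, in 4T1R1. The immediate-early transcription factors, which respond within minutes to growth factor signals through MAP kinases, gave the largest values. Fos, a subunit of the AP-1 dimer, had 621, 576 and 977 normalized counts in untreated and 35 and 40 in treated 4T1, and 393, 394 and 312 in untreated and 214, 397 and 329 in treated 4T1R1. The treated 4T1 libraries stood far below all others, while treated and untreated 4T1R1 overlapped, and the difference of 4.05 ± 0.30 (adjusted p = 5.18e-14 by edgeR) was the largest of the called genes named by the rule. Its paralog Fosb had 1839.5, 1729 and 2455 and 336 and 358 in 4T1, and 929.5, 1023 and 823 and 737, 1184 and 967 in 4T1R1. The zinc finger factor Egr1 had 622, 511 and 715 and 80.9 and 88.6 in 4T1, and 348, 462 and 432 and 423, 358 and 399 in 4T1R1. Both fell in 4T1 alone, with differences of 2.59 ± 0.19 and 2.80 ± 0.18.

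Jun and Junb, the partners of Fos, fell in both populations and less in 4T1R1, with responses of -1.24 and -0.25 for Jun and -1.76 and -0.65 for Junb. Egr3 behaved likewise, with -1.91 and -0.54. Klf10, a repressor induced by TGF-β, fell in 4T1 (-0.77) and had -0.011 in 4T1R1. Klf2 had -2.16 and -1.28, and its difference of 0.88 ± 0.24 became 0.63 (adjusted p = 0.131 by edgeR) without replicates 1 and 2 of 4T1 DMAG-treated. The direction was not shared by the whole list: of 27 EGR, KLF, NR4A and other immediate-early genes 10 were higher and 10 lower, and of 12 AP-1 genes 5 were higher and 3 lower. Among those lower, the orphan nuclear receptor Nr4a2 had 139.8, 123 and 127 in untreated and 402 and 426 in treated 4T1, and 114, 121 and 97.5 and 89.2, 119.6 and 117 in 4T1R1. It rose in 4T1 alone, a difference of -1.70 ± 0.21.

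Feedback genes of the MAP kinase pathway, whose transcripts follow its activity, were higher in the difference in 10 of 21 and lower in 3, with a median of 0.22 that was 0.37 under total counts alone. The count of higher members was 5 or 6 without any of untreated 4T1 replicate 1, treated 4T1 replicate 3, untreated 4T1R1 replicate 2, treated 4T1R1 replicate 1, or the averaged pair. The ERK phosphatase Dusp6 had 3816, 3368 and 3825 normalized counts in untreated and 2181 and 2156 in treated 4T1, and 3065, 3098 and 3043 and 2921, 2824 and 2989 in 4T1R1. Treated 4T1 was below all others, and the difference was 0.68 ± 0.066. The receptor tyrosine kinase inhibitors Spry2 and Errfi1 differed by 0.58 ± 0.076 and 0.43 ± 0.047.

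Of 12 factors of mRNA decay, which shorten the life of cytokine and immediate-early transcripts, 8 were higher and none lower, with median responses of -0.74 in 4T1 and -0.23 in 4T1R1 and a median difference of 0.48 (0.63 under total counts alone). The AU-rich element binding proteins Zfp36l1 and Zfp36l2 differed by 0.75 ± 0.083 and 0.60 ± 0.046, Rc3h1 (roquin) by 0.58 ± 0.053, and the antiproliferative Btg2 by 1.31 ± 0.29. The Notch ligand Dll4, which is in no list, had 888, 886 and 963 normalized counts in untreated and 175 and 172 in treated 4T1, and 375, 415 and 379.8 in untreated and 266, 229.6 and 239 in treated 4T1R1. It fell in both without overlap, by less in 4T1R1, and the difference was 1.73 ± 0.14.

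About as many NF-κB genes fell in 4T1 as in 4T1R1 after 17-DMAG, 17 and 16 of 23 tested, and several fell by less in 4T1R1. Of the 23 subunits, inhibitors and feedback genes 12 were higher in the difference and 2 lower, with median responses of -0.46 in 4T1 and -0.29 in 4T1R1. The median difference was 0.20, or 0.35 under total counts alone, and untreated levels were a median of 0.57 higher in 4T1R1. Nfkbia encodes IκBα, the inhibitor that NF-κB itself induces. It had 1262, 1194 and 1192 normalized counts in untreated and 275 and 292 in treated 4T1, and 2945, 3073 and 3096 in untreated and 2073, 2036 and 1958 in treated 4T1R1. All treated 4T1R1 libraries were above all untreated 4T1 libraries, and the difference was 1.52 ± 0.081 (adjusted p = 1.99e-18 by edgeR). Its relative Nfkbie differed by 0.93 ± 0.12, the adaptor Traf1 by 0.92 ± 0.096, the deubiquitinase Tnfaip3 (A20) by 0.23 ± 0.058, and the ubiquitin ligase Neurl3, which is in no list, by 1.28 ± 0.065. Of the list members lower in the difference, Tnfaip2 rose by 0.20 in 4T1 and fell in 4T1R1 (-0.11).

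The κB site was searched by its consensus on both strands. Among the 19 genes of this list with a RefSeq promoter, 11 held it in the 250 bases before any listed start (57.9%). Of all promoters, counted singly, 7.25% held it. The promoters of Nfkbia (chr12:55492648-55492897, minus strand), Nfkbie (chr17:45555450-45555699, plus strand) and Cxcl1 (chr5:90890995-90891244, plus strand; RefSeq, GRCm38.p6) are shown because these genes fell more in 4T1 than in 4T1R1, with the site in capitals. Before Cxcl1 the matches of both strands overlap. Only promoters that held the site and lay almost wholly outside the annotated gene could be shown. Tnfaip2, which was lower in the difference, held the site too. A match is a sequence and not a measurement of binding. 
Nfkbia: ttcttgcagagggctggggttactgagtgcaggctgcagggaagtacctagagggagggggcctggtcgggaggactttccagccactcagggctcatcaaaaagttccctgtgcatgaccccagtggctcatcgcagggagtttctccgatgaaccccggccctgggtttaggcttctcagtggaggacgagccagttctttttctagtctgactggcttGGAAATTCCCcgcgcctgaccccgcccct
Nfkbie: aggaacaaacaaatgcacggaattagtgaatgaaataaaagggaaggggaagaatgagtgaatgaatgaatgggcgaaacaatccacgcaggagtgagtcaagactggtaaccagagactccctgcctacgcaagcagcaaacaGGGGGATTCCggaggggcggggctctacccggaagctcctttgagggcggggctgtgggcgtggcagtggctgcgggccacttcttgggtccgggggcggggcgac
Cxcl1: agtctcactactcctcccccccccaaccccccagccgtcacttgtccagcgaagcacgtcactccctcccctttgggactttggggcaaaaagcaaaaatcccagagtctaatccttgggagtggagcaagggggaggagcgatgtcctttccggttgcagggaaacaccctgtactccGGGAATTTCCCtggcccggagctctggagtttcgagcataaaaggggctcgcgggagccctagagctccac

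Of the secreted products of the pathway, Cxcl1, Csf3 and Lif were higher in the difference. The neutrophil chemokine Cxcl1 had 587, 479.8 and 623 normalized counts in untreated and 115 and 92.9 in treated 4T1, and 4551, 4357 and 4714 in untreated and 2721, 2335 and 2338 in treated 4T1R1, a difference of 1.54 ± 0.14. The granulocyte growth factor Csf3 had 561, 563 and 562 and 165 and 164 in 4T1, and 5409.7, 5359 and 5386 and 2743, 2612 and 2562 in 4T1R1, a difference of 0.74 ± 0.086. Both genes fell in both populations without overlap, and treated 4T1R1 stayed above untreated 4T1. Lif, of the IL-6 family, differed by 0.42 ± 0.067. Of 19 cytokine genes 5 were higher and 2 lower, of 8 CXC chemokines 1 (Cxcl1) higher and 1 (Cxcl16) lower, and of 8 CC chemokines and Cx3cl1 1 higher and none lower. Several members of these lists were at 3 counts or fewer in a group, and with those set to their bounds the medians went from 0.13 to -0.002 for cytokines, from 0.26 to -0.16 for CXC and from 0.23 to 0.032 for CC chemokines, so no direction is given for them. Il1a, the alarmin interleukin-1α, had 9.32, 7.48 and 14.6 in untreated and 28.2 and 27 in treated 4T1, and 144, 161 and 171 in untreated and 104, 76.2 and 108 in treated 4T1R1. It rose from a low level in 4T1 and fell from a higher one in 4T1R1, a difference of -2.10 ± 0.35, and no library of 4T1 reached the lowest of 4T1R1. Cxcl16, a membrane-anchored chemokine, had a response of 0.097 in 4T1 that was not called and fell in 4T1R1 (-0.40).

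**Figure D4:**
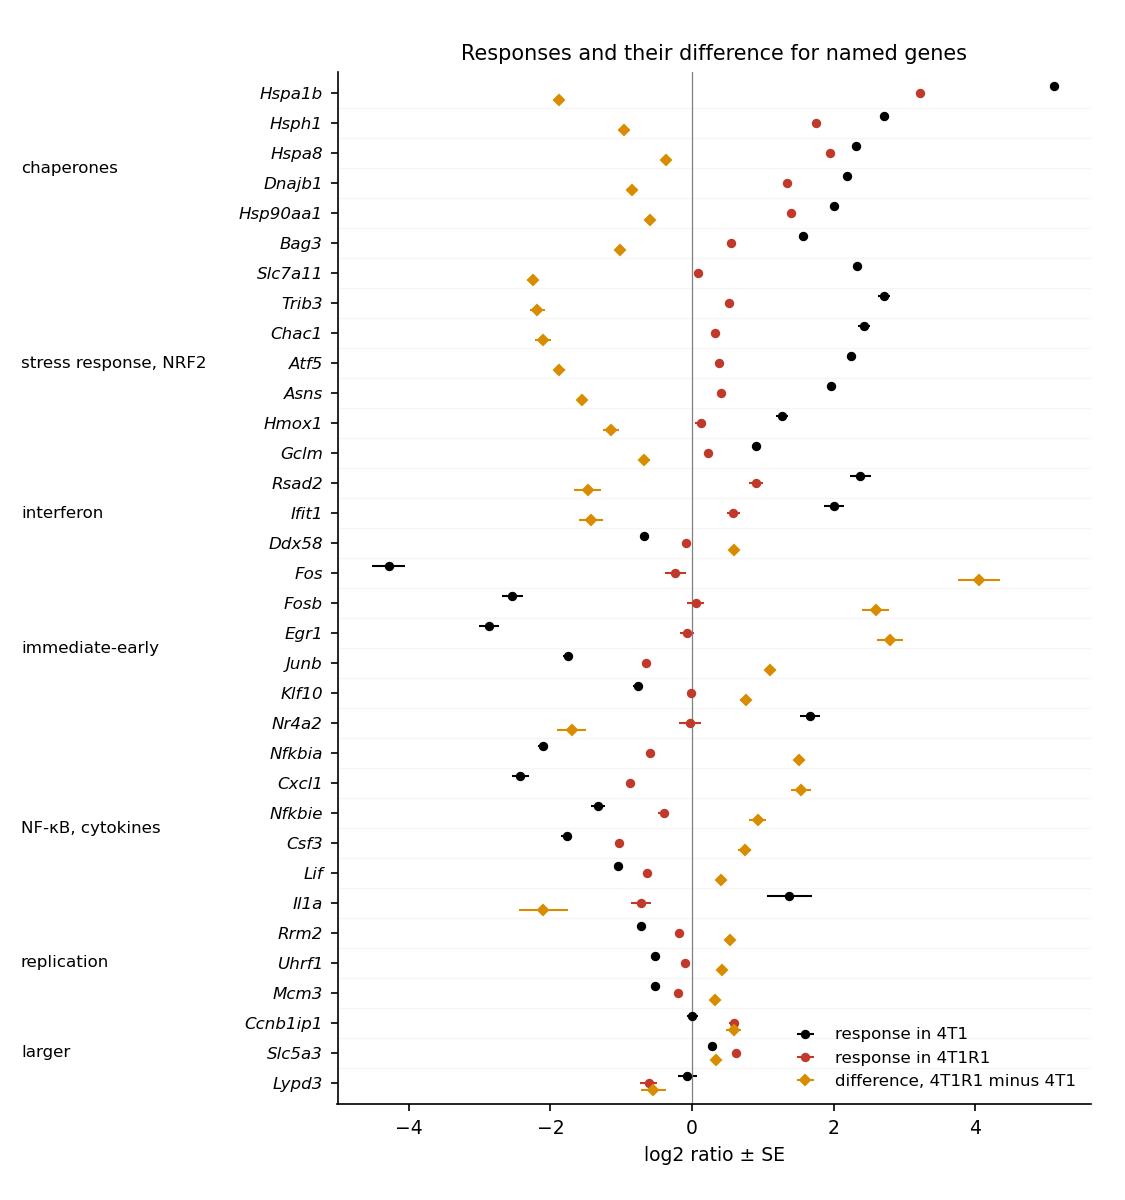
Fitted responses in 4T1 (black) and 4T1R1 (red) and their difference (orange diamonds), as log2 ratios with SE, for 34 genes in 7 groups. Differences run from -2.25 for Slc7a11 to 4.05 for Fos, and the red points lie nearer to 0 than the black ones except in the group of larger responses.

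DNA replication genes fell in 4T1 and fell less in 4T1R1. Of 36 tested, 29 fell in 4T1 and 19 in 4T1R1 and none rose in either, and the difference was higher for 20 and lower for none. The median response was -0.29 in 4T1 and -0.11 in 4T1R1, and the median difference was 0.21, or 0.36 under total counts alone. Rrm2, the regulated subunit of ribonucleotide reductase, had 10496, 10860.0 and 10764 normalized counts in untreated and 6675 and 6379 in treated 4T1, and 9200.0, 8459.9 and 9229 in untreated and 8029.9, 8136 and 7599 in treated 4T1R1. Treated 4T1 was below every other library, and the difference was 0.54 ± 0.049. The replicative helicase subunit Mcm3 differed by 0.32 ± 0.047, Uhrf1, which maintains DNA methylation at the fork, by 0.43 ± 0.043, and the histone mRNA binding protein Slbp, which fell in 4T1 alone, by 0.48 ± 0.065. Of 38 genes of mitosis 5 were higher and 9 lower, but 16 higher and 2 lower under total counts alone, with a median difference of -0.042 that was 0.11 under total counts alone. Replication-dependent histone genes fell in both populations, 34 of 58 in 4T1 and 35 in 4T1R1, with 5 higher and 5 lower in the difference, or 19 and 2 under total counts alone.

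Genes that moved in opposite directions in the populations included transcription factors and stress genes with higher untreated levels in 4T1R1. Cebpb, a bZIP factor of acute-phase and stress genes and a member of the integrated stress response list, had 1529.8, 1484 and 1586 normalized counts in untreated and 2348 and 2535 in treated 4T1, and 3615, 4246 and 3695 in untreated and 2901, 2664 and 3035 in treated 4T1R1. It rose in 4T1 and fell in 4T1R1 without overlap in either, and the treated levels of the populations lay near each other, a difference of -1.09 ± 0.077. Its relative Cebpd, 50.8, 42.7 and 72.2 and 101 and 124 in 4T1 and 267, 338 and 267 and 215, 203 and 214 in 4T1R1, had a difference of -1.47 ± 0.22. Herpud1, which acts in the disposal of misfolded ER proteins, had 749, 716 and 649 and 1162 and 1190.3 in 4T1 and 1737, 1794 and 1708 and 1334, 1390.2 and 1273 in 4T1R1, a difference of -1.13 ± 0.08. In these genes the 4T1R1 libraries were above the untreated 4T1 libraries throughout.

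The ER chaperone Hspa5 (BiP) rose by 0.23 in 4T1 and fell in 4T1R1 (-0.10), but the list of ER chaperones and unfolded protein response genes was divided, with 3 of 22 higher (Dnajc3, Xbp1 and Dnajb9) and 3 lower (Herpud1, Hspa5 and Atf6), or 7 and 2 under total counts alone. The epithelial factor Elf3 responded with 0.51 in 4T1 and -0.39 in 4T1R1, the ubiquitin ligase subunit Fbxo32 with 0.55 and -0.55, and Numbl, a relative of the Notch inhibitor Numb, with 0.48 and -0.46. The call of Numbl was lost without replicate 3 of 4T1 DMAG-treated (difference -0.64, adjusted p = 0.101 by edgeR). In the other direction, falling in 4T1 and rising in 4T1R1, the interferon-inducible Ifi203 had 2514, 2365 and 2363 normalized counts in untreated and 1578 and 1746 in treated 4T1, and 3311, 3038 and 3582 in untreated and 3846, 3881 and 3613 in treated 4T1R1. Its difference was 0.73 ± 0.073. The neuronal pentraxin Nptx1 differed by 0.65 ± 0.06, Ccdc18 by 0.83 ± 0.15, and the zinc finger genes Zfp934 and 2010315B03Rik by 0.84 ± 0.19 and 0.99 ± 0.20. The numbered zinc finger genes as a list had 31 of 298 higher, a share near that of all genes, and 10 lower, or 83 higher and 2 lower under total counts alone.

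The few larger responses in 4T1R1 were modest. Ccnb1ip1, a ubiquitin ligase of meiotic recombination, had 776, 804 and 834 normalized counts in untreated and 775 and 847 in treated 4T1, and 1029, 889.6 and 1013 in untreated and 1543, 1481 and 1406 in treated 4T1R1. The 4T1 groups overlapped and the 4T1R1 groups did not, with a difference of 0.59 ± 0.10. The inositol transporter Slc5a3 rose in both, by 0.28 in 4T1 and 0.62 in 4T1R1, and the methyl-CpG binding factor Zbtb33 (Kaiso) rose in 4T1R1 alone (0.41). Among the larger falls, Lypd3 had a response of -0.61 in 4T1R1 against -0.065 in 4T1, the eIF2 kinase Eif2ak3 (PERK) -0.39 against -0.027, the small MAF factor Maff -0.33 against -0.033, and the short locus Mir6516 -1.0 against -0.42. In a total RNA library a short locus cannot be told apart from a transcript that overlaps it. Each of these 4 falls lost its call under total counts alone and without at least 1 library, and the class itself held 23 genes without 4T1 DMAG-treated replicate 3 and 24 without replicates 1 and 2.

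Single genes outside these lists gave some of the largest values. Tex14, known for its role in intercellular bridges of germ cells, had 7.25, 5.34 and 9.75 normalized counts in untreated and 86.5 and 119 in treated 4T1, and 27.3, 14.6 and 7.43 in untreated and 18.2, 25.4 and 25.5 in treated 4T1R1. Only the treated 4T1 libraries stood out, a difference of -3.26 ± 0.58 from low counts. The RAD52-related gene Rdm1 had 72.5, 67.3 and 54.6 and 263 and 366 in 4T1, and 81.8, 56.3 and 88.2 and 99.7, 118 and 104 in 4T1R1, a difference of -1.77 ± 0.27. The circadian repressor Ciart rose in 4T1 alone, with 109, 105 and 99.5 and 325 and 324 in 4T1 and 236, 223 and 243 and 217, 248 and 221 in 4T1R1, while the clock receptor Nr1d1 fell in both and differed by 0.85 ± 0.13. Of 14 circadian clock genes 2 were higher and 3 lower, or 5 and 3 under total counts alone. The prolyl hydroxylase Egln3, a target and inhibitor of HIF, fell by less in 4T1R1 (0.62 ± 0.064), while of 30 glycolysis and HIF-1 target genes 10 were lower and 2 higher. Under total counts alone 2 of that list were lower and 4 higher, and its median went from -0.076 to 0.073. At Mir703, a short locus with 189.5, 89.8 and 159.9 in untreated and 99.8 and 90.7 in treated 4T1 and 15.6, 4.17 and 27.9 and 58.5, 29.6 and 55.3 in 4T1R1, the difference was 2.17 ± 0.50 with wide spread in each group.

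The drug efflux pumps of the Abcb1 locus responded little compared with their untreated difference between the populations. Abcb1b had 3362, 3403 and 3506 normalized counts in untreated and 2983 and 2938 in treated 4T1, and 23666, 23129 and 23892 in untreated and 25133, 23986 and 24849.9 in treated 4T1R1. The untreated difference was 2.78 (log2), and the difference in response 0.27 ± 0.039. Abcb1a had 8.29, 21.4 and 19.5 and 33.8 and 56.2 in 4T1, and 246, 251 and 242 and 265, 273 and 274 in 4T1R1. It rose in 4T1 from few counts and its difference of -1.27 ± 0.30 became -0.90 (adjusted p = 0.091 by edgeR) without replicate 3 of 4T1 DMAG-treated. Of 9 ABC transporters tested 1 was higher and 4 lower, or 2 and 2 under total counts alone.

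The remaining lists had, with TMM scaling, counts in both directions or few calls. For transcripts of HSP90 client kinases 5 of 25 were higher and 2 lower, for YAP targets 1 of 15 higher and 7 lower, and for TGF-β feedback and ID genes 5 of 16 higher and 3 lower. Of 18 Myc, cyclin and CDK inhibitor genes 5 were higher and 3 lower, of 16 BCL2 family genes 4 and 4, and of 30 cholesterol and fatty acid genes 6 and 4. Of 16 MHC class I genes none was higher and 3 lower, of 14 actin and SRF target genes 1 higher and 5 lower, and of 21 keratin and junction genes 3 higher and 1 lower. Of 7 heat shock factors and regulators 1 was higher, and of 14 snoRNA hosts 1 lower. These counts depend on the scaling. Under total counts alone they were 12 higher and 0 lower for client kinases, 5 and 6 for YAP targets, 8 and 2 for TGF-β feedback and ID genes, 8 and 1 for Myc, cyclin and CDK inhibitor genes, 5 and 0 for the BCL2 family, 16 and 0 for cholesterol and fatty acid genes, 0 and 0 for MHC class I, 2 and 1 for actin and SRF targets, 10 and 1 for keratin and junction genes, 3 and 0 for heat shock factors and 5 and 0 for snoRNA hosts, so no direction is given for these lists.

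4T1R1 was also set beside 4T1R2, a comparison that uses no 4T1 library but shares the 4T1R1 libraries with the difference above. The 4T1R2 libraries carry names from the same series of identifiers as those of 4T1. Here too, population and any set of libraries handled together cannot be told apart. The responses of the 2 resistant populations differed at 124 genes higher in 4T1R1 (0.918% of those tested) and 164 lower (1.21%), and at 73 and 104 without 4T1R1 DMAG-treated replicate 1. In this comparison 4 of 11 HSP70 and HSP110 genes, 9 of 20 HSP90 genes and co-chaperones and 3 of 26 DNAJ genes were higher in 4T1R1 and none lower, while of 22 ER chaperones and unfolded protein response genes none was higher and 6 lower. Hspa1b responded with 3.23 in 4T1R1 and 2.29 in 4T1R2, beside 5.11 in 4T1. The difference between the resistant populations was 0.93 ± 0.071 (adjusted p = 1.54e-12 by edgeR). It was 0.57 ± 0.044 for Hsph1, 0.45 ± 0.033 for Hspa8, 0.53 ± 0.035 for Hsp90aa1 and 0.69 ± 0.053 for Dnaja1.

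Of 23 NF-κB subunits and feedback genes 4 were lower in 4T1R1 than in 4T1R2 and none higher, and of 19 cytokine genes 2 were lower and none higher. Csf3 responded with -1.03 in 4T1R1 and -0.096 in 4T1R2, a difference of -0.93 ± 0.049. Cxcl1 had -0.88 and -0.053, Lif -0.63 and 0.038, Nfkbia -0.59 and -0.16 and Junb -0.65 and -0.21, all called. The fall of Cebpb in 4T1R1 (-0.43) and its value in 4T1R2 (-0.049) also differed, by -0.38 ± 0.07, as did Dll4 (-0.54 ± 0.12), Maff (-0.40 ± 0.084) and Mir6516 (-0.78 ± 0.17). Slc7a11 (0.25 ± 0.06) and Slc5a3 (0.30 ± 0.06) were higher in 4T1R1. Among the integrated stress response genes 2 of 23 were higher and 1 lower, and Trib3, Chac1, Atf5 and Asns did not pass the threshold, with 0.32 ± 0.10, -0.067 ± 0.099, 0.053 ± 0.078 and 0.14 ± 0.053.

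Called differences were spread unevenly over transcript length. The 13015 tested genes with an annotated length (96.4%) were divided into 5 groups of equal size by the length of their longest transcript. In the shortest group (58 to 1829 bases) 3.38% were higher in the difference and 10.4% lower, with a median difference of -0.069, and in the longest (5115 to 123179 bases) 14.5% were higher and 9.95% lower, with a median of 0.028. The median response of the shortest group was -0.063 in 4T1R1 and 0.0090 in 4T1. The part of length in the values of the gene lists above was not tested.

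**Figure D5:**
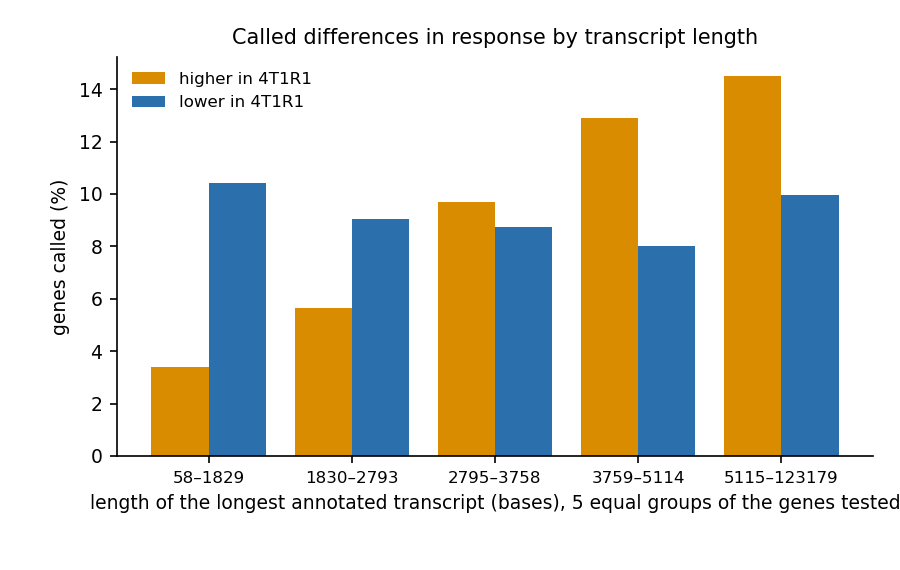
Percentage of genes called higher (orange) and lower (blue) in the difference in 5 groups of genes of equal size by transcript length, in bases. The share of higher calls rises from 3.38% to 14.5% from the shortest to the longest group, while the share of lower calls stays between 8.03% and 10.4%.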

How the data were processed

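RNA of 4T1, 4T1R1 and 4T1R2 cells, untreated or exposed to 17-DMAG, was sequenced in 3 biological replicates per group. According to the methods and the labels, total RNA was depleted of ribosomal RNA, made into dUTP-marked libraries and sequenced on a NovaSeq instrument. The submitters' processing notes name bcl2fastq 2.20, STAR, Subread 1.6.2 with featureCounts, and the builds mm10 and GRCm38. The values deposited by the authors are raw counts per gene symbol, as whole numbers without normalization. How strand and multi-mapped reads were handled is not given in the sources used here, so reads of overlapping, antisense and near-identical genes may be split or joined.

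Of 24421 symbols listed, 18785 had a count and 13507 passed edgeR's filterByExpr. Counts of 4T1 DMAG-treated replicates 1 and 2 were averaged, giving 17 libraries in 6 groups. They were scaled by TMM and fitted with edgeR 4.0.16 in R 4.3.3 (quasi-likelihood test, Benjamini-Hochberg adjustment over all genes tested, threshold 0.05). The common biological coefficient of variation was 0.0376. Normalized counts are counts divided by TMM-scaled library size and rescaled to a common depth. Depth per library, 26676031 to 55094630 counts in the 4 groups, limits the precision of genes with few counts. The SE of a difference is its size divided by the square root of the quasi-likelihood F. The p-values measure the spread between these replicates.

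The members, gene lists and tests were chosen with earlier results of these data known. Named genes were the 10 largest differences in each direction and the 8 largest in each class and direction, among called genes whose highest group averaged 100 normalized counts or more and which had above 3 counts in a library of every group, the 4 smallest p-values of called members in each list, and 30 genes given in advance. The text names those that a statement needs, and the others are not reported here. The few members named beside counts of 3 or fewer were otherwise chosen after their values were seen. Positions came from GENCODE vM21, matched to 23334 symbols, and promoters from RefSeq on GRCm38.p6. Scripts were tested on simulated counts in which chosen genes had been changed. The settings varied were RLE scaling, total counts alone, no Rn45s, no filter, a minimum of 10 counts, DESeq2 1.42.0, the 4 groups alone, 18 separate libraries, the replicate number as a block, minimum sizes, and each library left out in turn. Plots were made in Python 3.11.15 using matplotlib 3.10.9.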

Additional observations from a re-analysis of the deposited data

Results flagged for a closer look

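The responses to 17-DMAG of 4T1R1 and 4T1 differed at 1237 genes higher and 1227 lower in 4T1R1, and those of 4T1R1 and 4T1R2 at 124 higher and 164 lower, each by the test of the difference itself (edgeR's quasi-likelihood test). Genes named in the text with values that passed this test are gathered here, with the log2 difference between the 4T1R1 and 4T1 responses. Members named only beside list counts or promoter matches are not repeated. Of those beside counts, Cdc37l1, Dnajc9, Dnajc22, Grpel2, Vbp1, Dnajc3, Xbp1, Dnajb9 and Nfe2l2 were higher in 4T1R1 and Atf6 was lower. Among genes of chaperones and their partners, the difference was lower in 4T1R1 for Hspa1b (-1.88), Hsph1 (-0.97), Hspa8 (-0.37), Hspa4l (-0.42), Dnajb1 (-0.85), Dnaja1 (-0.16), Dnaja4 (-0.70), Dnajb4 (-0.71), Hsp90aa1 (-0.60), Hsp90ab1 (-0.31), Ahsa1 (-0.48), Stip1 (-0.45), Bag3 (-1.01), Hspb8 (-0.70), Hspd1 (-0.33), Hspe1 (-0.45) and Hspa5 (-0.33). Among genes of the integrated stress response, the difference was lower in 4T1R1 for Slc7a11 (-2.25), Trib3 (-2.18), Chac1 (-2.10), Atf5 (-1.87), Asns (-1.55), Aars (-1.08), Ddit3 (-0.73) and Cebpb (-1.09). Among other stress genes and factors it was lower for Gpt2 (-1.83), Cebpd (-1.47), Herpud1 (-1.13) and Eif2ak3 (-0.37). Among genes of protein turnover and antioxidant defence, the difference was lower in 4T1R1 for Sqstm1 (-0.91), Gabarapl1 (-1.04), Psmb3 (-0.39), Psmd11 (-0.31), Hmox1 (-1.14), Gclm (-0.67), Slc48a1 (-0.76) and Pgd (-0.44). Among genes of ribosomes and respiration, the difference was lower in 4T1R1 for Rpl31 (-0.31), Rpl12 (-0.26), Uqcrq (-0.60) and Cox8a (-0.39). Among genes of the interferon response, the difference was lower in 4T1R1 for Rsad2 (-1.47), Ifit1 (-1.42), Oasl1 (-0.97) and Gbp2b (-1.22), and higher for Ddx58 (0.59) and Ifi203 (0.73). Among genes of immediate-early and feedback control, the difference was lower in 4T1R1 for Nr4a2 (-1.70) and Maff (-0.30), and higher for Fos (4.05), Fosb (2.59), Egr1 (2.80), Egr3 (1.36), Jun (0.99), Junb (1.10), Klf10 (0.76), Klf2 (0.88), Dusp6 (0.68), Spry2 (0.58) and Errfi1 (0.43). Among genes of mRNA decay, the difference was higher in 4T1R1 for Btg2 (1.31), Zfp36l1 (0.75), Zfp36l2 (0.60) and Rc3h1 (0.58). Among genes of NF-κB signalling and its secreted products, the difference was lower in 4T1R1 for Tnfaip2 (-0.31), Cxcl16 (-0.50) and Il1a (-2.10), and higher for Nfkbia (1.52), Nfkbie (0.93), Traf1 (0.92), Tnfaip3 (0.23), Neurl3 (1.28), Cxcl1 (1.54), Csf3 (0.74) and Lif (0.42). Among genes of replication, the difference was higher in 4T1R1 for Rrm2 (0.54), Mcm3 (0.32), Uhrf1 (0.43) and Slbp (0.48). Among the other named genes it was lower for Abcb1a (-1.27), Ciart (-1.67), Elf3 (-0.89), Fbxo32 (-1.10), Lypd3 (-0.55), Mir6516 (-0.58), Numbl (-0.93), Rdm1 (-1.77) and Tex14 (-3.26), and higher for 2010315B03Rik (0.99), Abcb1b (0.27), Ccdc18 (0.83), Ccnb1ip1 (0.59), Dll4 (1.73), Egln3 (0.62), Mir703 (2.17), Nptx1 (0.65), Nr1d1 (0.85), Slc5a3 (0.34), Zbtb33 (0.38) and Zfp934 (0.84).

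Between the 2 resistant populations, a comparison that uses no 4T1 library but shares the 4T1R1 libraries with the values above, the response was higher in 4T1R1 for Dnaja1 (0.69), Hsp90aa1 (0.53), Hspa1b (0.93), Hspa8 (0.45), Hsph1 (0.57), Slc5a3 (0.30) and Slc7a11 (0.25), and lower for Cebpb (-0.38), Csf3 (-0.93), Cxcl1 (-0.83), Dll4 (-0.54), Junb (-0.45), Lif (-0.67), Maff (-0.40), Mir6516 (-0.78) and Nfkbia (-0.42). The separate series of identifiers of the 4T1R1 libraries coincides with this comparison as well.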

How the results depend on the processing

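Of 101 genes named with values, 92 kept their direction and their side of the threshold under every alternative run, and none of the 101 changed direction. The calls of Dnaja1, Klf2, Numbl, Abcb1a, Eif2ak3, Maff, Lypd3 and Mir6516 were lost under 1 or more alternatives, and that of Hspa1a was gained without 4T1 untreated replicate 3 (-2.61). Under total counts alone 3536 genes were higher and 419 lower in the difference, 1193 rose and 4322 fell in 4T1, 609 were higher and 61 lower against 4T1R2, and the classes held 205 larger, 390 opposite, 1620 opposite in 1 population and 200 unplaced genes. With a size of at least 0.5 (log2), 262 were higher and 275 lower, 565 rose and 642 fell in 4T1, 179 rose and 191 fell in 4T1R1, 18 were higher and 24 lower against 4T1R2, and the classes held 315 smaller, 4 larger, 38 opposite, 165 opposite in 1 population and 15 unplaced. With a size of at least 1 the same counts were 53 and 85, 197 and 171, 39 and 36, 2 and 1, and 74, 0, 6, 49 and 9. Without a filter 283 genes were lower against 4T1R2, and 18 separate libraries gave 141 larger responses. With each library left out in turn, 798 to 1283 genes were higher and 787 to 1254 lower, 73 to 177 higher and 104 to 226 lower against 4T1R2, and the classes held 23 to 145 larger, 87 to 210.0 opposite, 593 to 1001 opposite in 1 population and 58 to 118 unplaced genes. The lowest values came without 4T1 DMAG-treated replicate 3, which leaves 1 sample in that group, assumed to vary like the others, except against 4T1R2, where they came without 4T1R1 DMAG-treated replicate 1. DESeq2 gave 1276 higher and 1196 lower. Replicate numbers did not pair the libraries (0 of 18 correlations of same-numbered deviations over 0.1, from -0.059 to 0.092), and with the replicate number as a block in 18 separate libraries 1425 were higher and 1370 lower (1456 and 1409 without the block). The causes of these shifts were not tested. Low counts limit Hspa1a, Il1a, Tex14, Abcb1a and Mir703, and each resistant population is a single selected population.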
